A study of Mus musculus with 12 samples.

Results

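Glucocorticoid-responsive genes and metallothioneins were followed in mouse blood after injury. The 10 genes were taken by name from a table of 37583 genes: Fkbp5, Tsc22d3, Zbtb16, Sgk1, Ddit4, Cdkn1a and Pdk4, which glucocorticoid hormones are known to induce, the metallothioneins Mt1 and Mt2, and Nr3c1, which encodes the glucocorticoid receptor. Wild-type animals had received a burn together with a tenotomy, the cutting of a tendon, a model in which bone can form in soft tissue. All 12 libraries come from injured mice, 4 at 6 h (6h), 4 at 1 day (Day1) and 4 at 7 days (Day7), and an uninjured group was not analysed here, so every difference below is between times after injury. Whole blood was enriched on a microfluidic sorter, the iChip, and total RNA of the enriched cells was sequenced. The labels describe these cells as cMPCs together with blood cells. Whether each replicate is its own animal is not stated, and the p-values therefore cover only variation among these libraries, some of which may be technical.

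Corticosterone, the main glucocorticoid of mice, is released from the adrenal cortex under stress and enters cells freely. Without hormone the receptor is held in the cytoplasm by heat-shock chaperones and immunophilins. With hormone it moves to the nucleus and binds DNA elements near its target genes, among them genes whose products end the response, such as Fkbp5. Metallothioneins are small cysteine-rich proteins that bind zinc and copper, and their genes are induced by metals through the factor Mtf1 and also by glucocorticoids and inflammation. In leukocytes these genes are widely used as readouts of hormone exposure, although each also answers to other signals.

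The libraries held 5098395 to 12379041 reads assigned to genes, and 7631 to 16647 genes had a read. Within a library the deposited values are whole multiples of 1 number, taken as the worth of 1 read, which is 0.0314 to 0.617, so a library with 0 reads of a gene allows a value of up to 3 reads, 0.0942 to 1.85, by counting error alone. 2 libraries stood apart by their low number of detected genes, 6h replicate 1 (7631) and Day7 replicate 3 (7635). Haemoglobin genes took 16.1% to 70.3% of reads. Reads of Y-linked genes were found in 5 libraries, 6h replicates 3 and 4 (76 reads each) and Day1 replicates 2, 3 and 4 (603, 422 and 853), and in none of the Day7 libraries, so time and this property of the libraries are partly confounded. Platelet markers summed to 192 to 26429 in 6h libraries, 944 to 6247 in Day1 libraries and 24042 to 41387 in Day7 libraries. Hepatocyte markers summed to 4.92 to 255 in 6h libraries, 1897 to 5923 in Day1 libraries and 128 to 26597 in Day7 libraries. For mesothelial cells the sums were 3.08 to 197 at Day7, against 444 to 2391 at Day1 and 19.7 to 2015 at 6h. For mesenchymal cells they were 12.3 to 547 at Day7, against 294 to 1596 at Day1 and 11.4 to 1229 at 6h. Of the 10 mesenchymal markers 1, Pdgfrb, was at 0 in all Day7 libraries and 1, Lum, in all 6h libraries. At least 5 of the 10 had a read in each Day7 library, at least 9 in each Day1 library and at least 3 in each 6h library. In bulk RNA, fewer cells of a type and less RNA per cell cannot be told apart.

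All 10 genes passed the filter for testing, a value of at least 1 in at least 4 of the 12 libraries. Zbtb16 and Pdk4 reached a value of 1 in only 6 libraries each. Per kilobase of gene model, Mt1 had the highest mean of the 10 genes at every time, 94.7 ± 47.4 at 6h, 179 ± 75.0 at Day1 and 40.6 ± 11 at Day7 (SD, n = 4 each). Cdkn1a (52.9 ± 38.9) and Sgk1 (48.2 ± 78.8) came next at 6h and overlapped widely in their libraries. At Day1 Mt2 (77.0 ± 38.2) and Cdkn1a (75.5 ± 54.3) were next and also overlapped. At Day7 the second place went to Tsc22d3 (24.3 ± 11.5), with Mt2 (19.97 ± 19.3) overlapping it, and Fkbp5, Pdk4 and Zbtb16 had the lowest means, 0.211 ± 0.195, 0.0639 ± 0.128 and 0.0529 ± 0.0644 per kilobase.

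Between Day7 and Day1, 2 of the 10 genes passed the test and both fell, Fkbp5 and Cdkn1a, where 3.59% of all tested genes were called lower and 5.78% were called in either direction. The values were compared with limma on log2(value + 1) across 11211 genes, with Benjamini-Hochberg adjustment and a threshold of 0.05. In 9 of the 10 genes the log2 difference was negative, with a median of -2.08 beside -0.48 for all tested genes. The latter depends on the filter, and was 0.36 over the 4383 genes with a mean of at least 10. In 5 of them, Fkbp5, Zbtb16, Cdkn1a, Mt1 and Nr3c1, every Day7 library lay below every Day1 library, as did 14.5% of all tested genes. None of the 10 was called higher, where 2.19% of tested genes were, and none lay wholly above Day1, as 8.47% did. Between Day7 and 6h, Fkbp5 was the one gene called, and it fell, where 0.277% of tested genes were called lower and 0.883% in either direction. The median log2 difference was -1.10 beside 0.13 for all genes, and 3 of the 10 genes, Fkbp5, Cdkn1a and Mt1, lay wholly below their 6h values, as did 2.38% of all genes. No gene of the 10 was called higher, where 0.607% of tested genes were, and none lay wholly above 6h, as 3.45% did. Between Day1 and 6h limma called 0 of 10 genes, where 0.169% of tested genes were called, 1 gene (Nr3c1) had an unadjusted p under 0.05, edgeR called 0 and DESeq2 called 1 (Sgk1). Over all 11211 genes in that comparison 1251 had an unadjusted limma p under 0.05, edgeR called 9 and DESeq2 193. The median log2 difference there was 0.41, beside 0.52 for all genes, and 5.52% of all genes lay wholly above 6h. Each time group enters 2 of the 3 comparisons, so they are not independent.

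**Figure D1:**
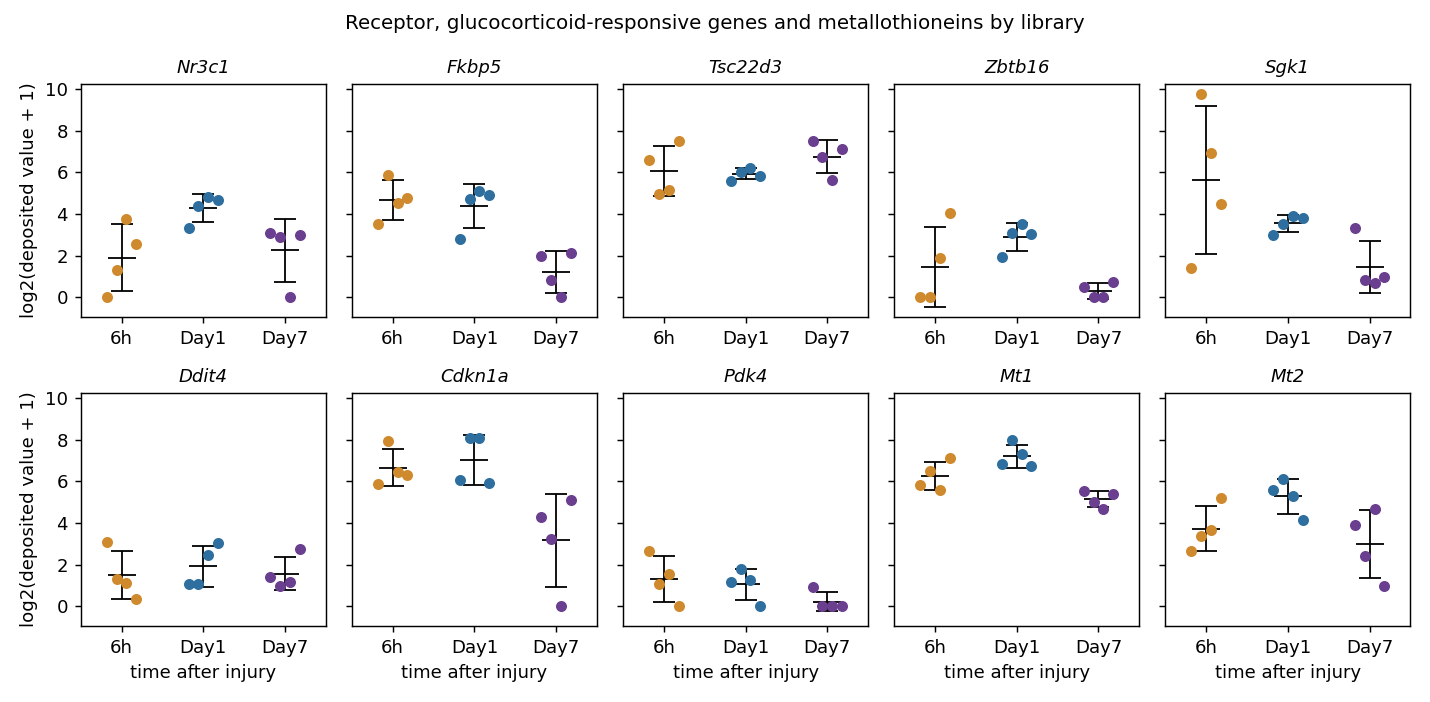
Deposited value of each of the 10 genes on a log2(value + 1) axis, with 1 point per library and a bar at the mean, with its SD, of the 4 libraries at 6h, Day1 and Day7. Fkbp5, Cdkn1a and Mt1 have all 4 Day7 points below every point of both earlier times, while Tsc22d3 does not.

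**Figure D2:**
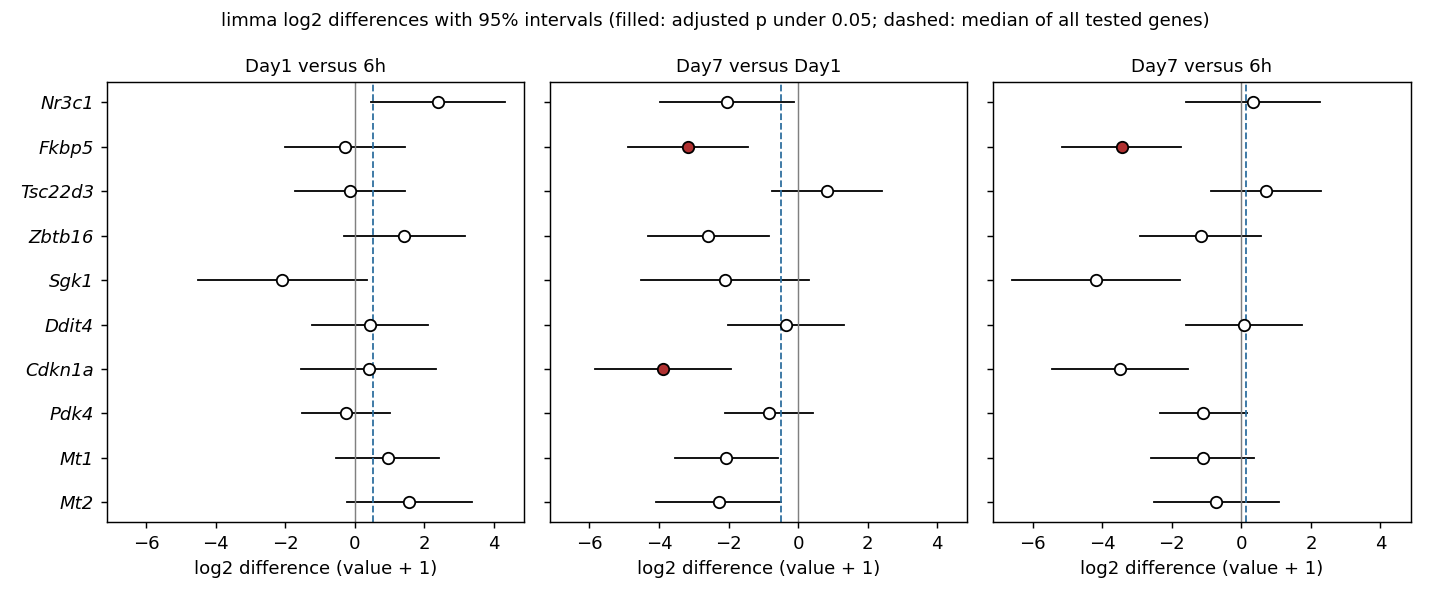
Log2 difference of each gene from limma for the 3 comparisons of times, later minus earlier, with 95% intervals. The intervals are wide, and adjusted p passed 0.05 for Fkbp5 and Cdkn1a in Day7 versus Day1 and for Fkbp5 in Day7 versus 6h.

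Fkbp5 (ENSMUSG00000024222) encodes an immunophilin that binds the receptor complex and lowers its affinity for hormone, and it is among the best-known receptor targets. At 6h its values were 10.5, 57.2, 22.2 and 26.6 in replicates 1 to 4, at Day1 they were 6.06, 25.4, 33.8 and 29.3, and at Day7 they were 2.96, 0.766, 0 and 3.33. The earlier times overlapped each other, and all Day7 libraries lay below them. Fkbp5 averaged 1.76 ± 1.63 at Day7 and 23.6 ± 12.2 at Day1 (SD, n = 4 each), a log2 difference of -3.17 (SE 0.84, limma adjusted p = 0.0335). Against 6h, where it averaged 29.1 ± 19.9, the Day7 difference was -3.45 (SE 0.84, limma adjusted p = 0.0449), and Day1 against 6h gave -0.28 (limma adjusted p = 0.929). That call against 6h was lost in 10 of the 12 fits without 1 library, with limma adjusted p of 0.0510 to 0.153, and was kept without 6h replicate 1 or 4. The Day7 call against Day1 was lost without Day1 replicate 2, 3 or 4 or Day7 replicate 2, 3 or 4, with limma adjusted p of 0.0575 to 0.0993 in those fits and log2 differences of -3.69 to -2.76 over all 12 fits without 1 library. With a term for Y-linked reads it was -2.50 (limma adjusted p = 0.260). In the libraries without Y-linked reads, Fkbp5 was at most 3.33 at Day7, against 6.06 in Day1 replicate 1.

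Cdkn1a (ENSMUSG00000023067) encodes the cell-cycle inhibitor p21, a target of p53 as well as of the glucocorticoid receptor. Its values at 6h were 58.6, 246, 85.9 and 79.6, at Day1 67.0, 271, 272 and 59.7, and at Day7 18.9, 8.42, 0 and 33.6. The Day7 libraries were again all below the others, and the 0 came from Day7 replicate 3, the Day7 library with the fewest genes detected. Cdkn1a averaged 15.2 ± 14.5 at Day7 and 168 ± 120.4 at Day1 (SD, n = 4 each), a log2 difference of -3.88 (SE 0.95, limma adjusted p = 0.0288). Against 6h (117 ± 86.3) the Day7 difference was -3.49, short of the threshold (limma adjusted p = 0.0639), and Day1 against 6h gave 0.39 (limma adjusted p = 0.903). The call against Day1 was lost without Day1 replicate 2, 3 or 4 or Day7 replicate 2 or 3 (limma adjusted p of 0.0706 to 0.0855). The log2 difference ran from -4.53 to -2.83 over the fits without 1 library, and the smallest of these left out Day7 replicate 3. With a term for Y-linked reads it was -3.70 (limma adjusted p = 0.178), and in the libraries without Y-linked reads Cdkn1a was at most 33.6 at Day7, against 67.0 in Day1 replicate 1.

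Platelet sums were higher and mesothelial sums lower in every Day7 library than in any Day1 library, and mesenchymal sums were lower at Day7 in the median, as given above. At 6h the mesothelial sums were 481, 19.7, 2015 and 1060 in replicates 1 to 4, and the mesenchymal sums 383, 11.4, 1229 and 634. Fkbp5 and Cdkn1a were highest among the 6h libraries in replicate 2, at 57.2 and 246. The part of these cell types in the lower Fkbp5 and Cdkn1a was not tested. Leaving out both libraries with few detected genes, an alternative chosen after seeing the data, kept 2 listed genes called between Day7 and Day1. Of all 10970 tested genes 416 were called in that fit. Without Day7 replicate 3 alone, 0 listed genes were called, beside 41 of all 11081 tested genes. Without 6h replicate 1 alone, a library outside this comparison, 3 listed genes were called, beside 1185 of all 11103.

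Tsc22d3 (ENSMUSG00000031431) encodes GILZ, a leucine-zipper protein through which glucocorticoids restrain inflammatory signalling. Its highest values were in Day7 replicate 1 and 6h replicate 4. Its values were 96.5, 30.3, 34.8 and 181 at 6h, 47.6, 64.5, 74.4 and 56.8 at Day1, and 184, 106, 49.3 and 138 at Day7. The groups overlapped, since Day7 replicate 3 lay below 3 Day1 libraries. Tsc22d3 averaged 119 ± 56.6 at Day7 and 60.8 ± 11.4 at Day1 (SD, n = 4 each), a log2 difference of 0.83 (SE 0.77, limma adjusted p = 0.486). The sign turned to -1.29 with scaling to all reads and to -1.02 with scaling to reads outside haemoglobin. The median of all genes lay at -1.78 and -1.92 there, so Tsc22d3 lay above the median in both, a distance that was not tested. As reported, the median was -0.48 over all tested genes and 0.36 over the 4383 genes with a mean of at least 10. The libraries with the highest Tsc22d3 were also rich in platelet markers. These summed to 26429 in 6h replicate 4 and to 24042 or more in each Day7 library. Yet Day7 replicate 3, with a platelet sum of 31126, had Tsc22d3 at 49.3. In 6h replicate 1 the platelet sum was 2227 and Tsc22d3 was 96.5. Day7 monocyte sums were 1555 to 3180 against 209 to 513 at Day1. The mean log2 level over the 8 monocyte markers overlapped, at 3.42, 2.47, 1.52 and 2.98 at Day7 against 2.98, 2.79, 3.43 and 2.23 at Day1. In Day7 replicate 3 only 2 of the 8 markers had a read. Mature neutrophil sums were 251 to 817 at Day7, against 8.45 to 91.5 at Day1 and 6.76 to 241 at 6h. The mean log2 level of the neutrophil markers was 3.12 to 5.78 at Day7, against 0.449 to 2.55 at Day1. The part of platelets, monocytes and neutrophils in the Tsc22d3 values was not tested.

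Fkbp5 was also set against Tsc22d3 within each library, in reads, with no scaling and no pseudocount. Per 100 reads of Tsc22d3 there were 10.8, 189, 63.9 and 14.7 reads of Fkbp5 at 6h, 12.7, 39.3, 45.5 and 51.5 at Day1, and 1.61, 0.719, 0 and 2.41 at Day7. Every Day7 library lay below every library of the earlier times. The Day7 values rested on 43, 4, 0 and 10 reads of Fkbp5, and the 0 of Day7 replicate 3, beside 80 reads of Tsc22d3, allows up to 3.75 per 100. The pair was chosen after its values were seen, so no test is given.

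**Figure D3:**
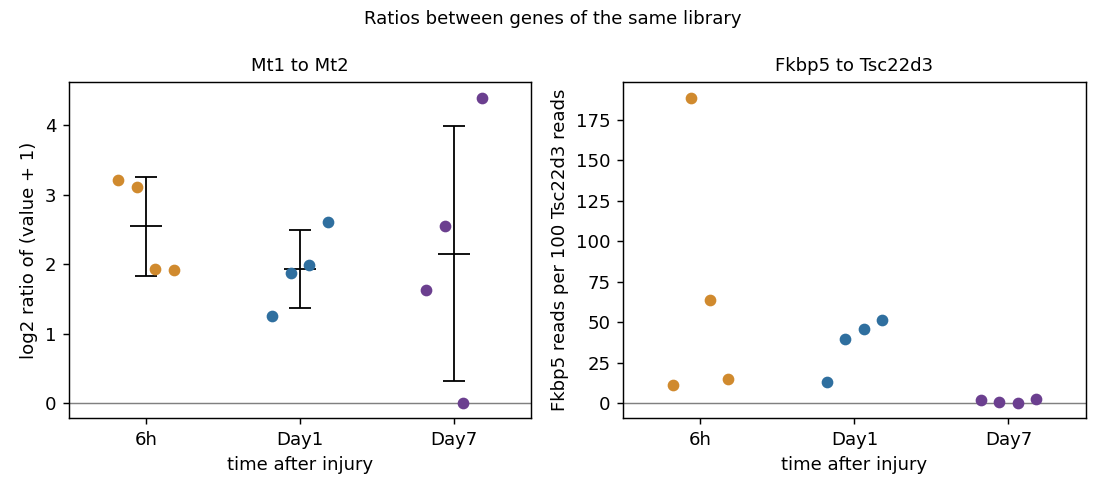
Ratios within each library at 6h, Day1 and Day7, 1 point per library, on the left the log2 ratio of Mt1 to Mt2 (value + 1) with the mean and SD, on the right reads of Fkbp5 per 100 reads of Tsc22d3. The Mt1 to Mt2 ratio overlaps between the times and is widest at Day7, from 0 to 4.40, whereas Fkbp5 per 100 Tsc22d3 reads is at most 2.41 at Day7 and at least 10.8 earlier.

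Zbtb16 (ENSMUSG00000066687) encodes PLZF, a zinc-finger repressor of transcription that is strongly induced by glucocorticoids in many cell types. It was 0, 0, 2.66 and 15.3 at 6h, 2.84, 7.57, 10.4 and 7.24 at Day1, and 0.413, 0, 0 and 0.665 at Day7. All Day1 libraries lay above all Day7 libraries, whose reads of the gene numbered 6, 0, 0 and 2. The log2 difference of Day7 against Day1 was -2.59 (SE 0.84, limma adjusted p = 0.0609), just short of the threshold. Zbtb16 was 2.66 to 15.3 in the 5 libraries with Y-linked reads, against 0 to 2.84 in the 7 without, ranges that overlap through Day1 replicate 1 (2.84). With the term for Y-linked reads the log2 difference was -0.92 (limma adjusted p = 0.628).

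Sgk1 (ENSMUSG00000019970) encodes a kinase that regulates ion channels and survival and that both glucocorticoids and mineralocorticoids induce. A single library dominated its values, which were 1.68, 864, 119 and 21.0 at 6h, 6.92, 10.7, 14.0 and 12.9 at Day1, and 9.08, 0.766, 0.617 and 0.998 at Day7. In 6h replicate 2 it was 864, from 2281 reads, and 6h replicate 1 of the same group had 1.68. The log2 difference of Day7 against 6h was -4.18 (SE 1.17, limma adjusted p = 0.0720), of Day7 against Day1 -2.10 (limma adjusted p = 0.235) and of Day1 against 6h -2.08 (limma adjusted p = 0.515). The Day7 difference from 6h was -2.80 without 6h replicate 2 and -5.58 without 6h replicate 1, and limma called it lower without 6h replicate 1 or 4 (adjusted p of 0.0145 and 0.0337), as did DESeq2. Day1 against 6h was -0.71 without 6h replicate 2 and -3.49 without 6h replicate 1. The 2 genes most like Sgk1 across the 12 libraries were Fdx1 (Pearson r = 0.92) and Cpe (0.89). Fdx1 encodes the ferredoxin that feeds electrons to steroid-making enzymes. A list of steroid synthesis genes, added after these values were seen, summed to 2511 in 6h replicate 2, to 235 and 216 in 6h replicates 3 and 4, and to at most 57.3 in the other 9 libraries. In 6h replicate 2 it was made of Cyp11a1 (1176), Hsd3b1 (832), Fdx1 (412), Star (47.3) and Nr5a1 (43.5). Cyp11b1, Cyp21a1 and Mc2r, which mark the adrenal cortex, had no read in any of the 12 libraries. The part of this signal in the Sgk1 value was not tested.

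Ddit4 (ENSMUSG00000020108) encodes REDD1, an inhibitor of the growth kinase mTORC1 that stress and glucocorticoids induce. It was low throughout, 7.65, 1.51, 1.21 and 0.300 at 6h, 1.11, 1.10, 4.63 and 7.24 at Day1, and 1.65, 0.957, 1.23 and 5.65 at Day7. The groups overlapped, and the log2 difference of Day7 against Day1 was -0.35 (95% interval -2.03 to 1.32, limma adjusted p = 0.798). Pdk4 (ENSMUSG00000019577) encodes a kinase that switches off pyruvate dehydrogenase in fasting and stress. It was 5.23, 1.14, 1.93 and 0 at 6h, 1.24, 2.45, 1.44 and 0 at Day1, and 0.894, 0, 0 and 0 at Day7. In 5 of the 12 libraries it had no read, and the log2 difference of Day7 against Day1 was -0.83 (95% interval -2.09 to 0.43, limma adjusted p = 0.373). For both genes the intervals leave room for changes in either direction.

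Nr3c1 (ENSMUSG00000024431), the receptor itself, was 0, 1.51, 12.6 and 4.86 at 6h, 9.15, 19.97, 27.1 and 24.5 at Day1, and 7.57, 6.51, 0 and 6.98 at Day7. Day1 lay wholly above Day7 and overlapped the highest 6h library. The log2 difference of Day1 against 6h was 2.39 (SE 0.93, limma adjusted p = 0.367, unadjusted p = 0.0168), and that of Day7 against Day1 was -2.05 (limma adjusted p = 0.146). It had no read in 6h replicate 1 and Day7 replicate 3, the libraries with the fewest detected genes.

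Mt1 (ENSMUSG00000031765) was 56.8, 89.4, 47.1 and 139 at 6h, 114, 249.5, 158 and 106 at Day1, and 45.9, 30.8, 24.7 and 41.2 at Day7. All Day7 libraries lay below all libraries of both earlier times, although the highest Day7 library, at 45.9, was close to the lowest 6h one, at 47.1. Mt1 averaged 35.7 ± 9.66 at Day7 and 157 ± 65.8 at Day1 (SD, n = 4 each), a log2 difference of -2.06 (SE 0.72, limma adjusted p = 0.0724), short of the threshold. Mt2 (ENSMUSG00000031762) was 5.23, 9.47, 11.6 and 36.0 at 6h, 47.1, 67.6, 39.1 and 16.5 at Day1, and 14.1, 4.40, 24.7 and 0.998 at Day7. Day7 replicate 3, at 24.7, lay above the lowest Day1 library, so these groups overlapped. The log2 difference of Day7 against Day1 was -2.28 (SE 0.87, limma adjusted p = 0.0936) and that of Day1 against 6h was 1.56 (limma adjusted p = 0.508). Mt1 and Mt2 are related genes, and how the counting treated any reads that fit both is not stated.

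The Mt1 to Mt2 ratio asks whether the pair moved together. Its mean log2 value was 2.54 ± 0.71 at 6h, 1.93 ± 0.56 at Day1 and 2.15 ± 1.84 at Day7 (SD, n = 4 each). In reads, Mt1 to Mt2 was 40 to 40 in Day7 replicate 3 and 124 to 3 in Day7 replicate 4, the 2 ends of the whole range. A two-sided exact permutation test gave p = 0.257 (adjusted p = 0.771 over the 3 comparisons) for Day1 minus 6h, a difference of -0.61. For Day7 minus Day1 the difference was 0.22 and for Day7 minus 6h -0.40, both with an exact permutation adjusted p of 0.857. The smallest p this test can give with 4 against 4 libraries is 2 of 70.

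The promoters of both metallothionein genes are shown with matches to the core of the metal response element, TGCGCNC or TGCACNC, the letters to which the zinc-sensing factor Mtf1 binds, in capitals. They are RefSeq windows, 250 bases before to 50 after an annotated start, which were available for 8 of the 10 genes. Mt2, chr8:94172368-94172667 on the + strand, held 4 matches, and Mt1, chr8:94178839-94179138 on the + strand, held 3, the 2 genes lying next to each other on chromosome 8 of GRCm38.p6. Of all 32851 windows 25.7% held at least 1 match on either strand, 1.97% at least 3 and 0.517% at least 4. The last match of Mt2 is 5 bases after the annotated start of its window and the last of Mt1 is 21 bases after its own. Bases outside these windows were not searched, and whether transcription starts at these positions in these cells was not tested.
Mt2: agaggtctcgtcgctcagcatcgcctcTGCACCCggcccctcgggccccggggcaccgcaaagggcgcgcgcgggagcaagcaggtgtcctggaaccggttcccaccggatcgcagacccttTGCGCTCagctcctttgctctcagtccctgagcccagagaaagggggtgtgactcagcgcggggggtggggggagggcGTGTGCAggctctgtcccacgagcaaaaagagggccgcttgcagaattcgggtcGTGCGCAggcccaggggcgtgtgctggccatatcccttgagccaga
Mt1: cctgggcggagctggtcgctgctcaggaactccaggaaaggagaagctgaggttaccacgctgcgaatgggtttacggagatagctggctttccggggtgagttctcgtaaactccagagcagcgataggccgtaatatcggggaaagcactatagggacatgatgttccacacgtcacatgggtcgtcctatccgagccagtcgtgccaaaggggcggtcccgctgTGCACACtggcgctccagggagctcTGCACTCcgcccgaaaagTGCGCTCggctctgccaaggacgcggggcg

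**Figure D4:**
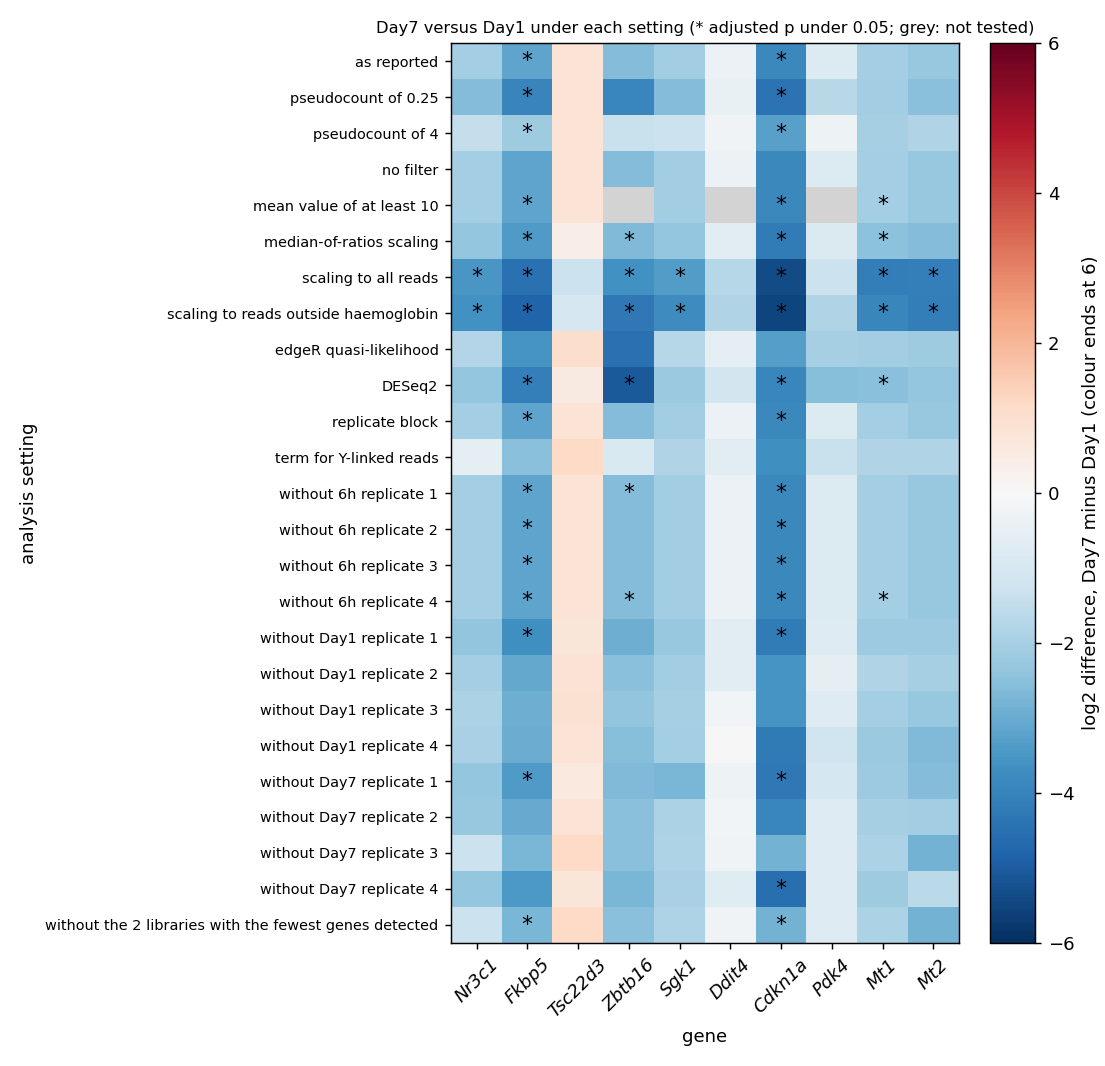
Log2 difference of each of the 10 genes between Day7 and Day1 under each setting, as colour that ends at 6, with an asterisk for an adjusted p under 0.05 and grey where a gene was not tested. Fkbp5 and Cdkn1a are negative throughout. Scaling to all reads or to reads outside haemoglobin calls 7 genes, beside 3963 and 3553 of all 11211 tested genes. edgeR, no filter and the term for Y-linked reads call 0, beside 1 of 11211, 57 of 20052 and 0 of 11211.

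Across the 12 libraries the genes of the list were not uniformly alike. The highest correlation between 2 of the 10 was that of Fkbp5 with Cdkn1a, Pearson r = 0.91, and Mt1 was next with Cdkn1a at 0.82. Tsc22d3 was negative with Sgk1 (-0.52) and with Fkbp5 (-0.30). Of 4355 or 4356 tested genes with a mean of at least 10, those most like Fkbp5 were Id3 and Serpinh1 (r = 0.96 each), those most like Cdkn1a were Nupr1 (0.98) and Zfp36 (0.95), and those most like Tsc22d3 were Inf2 (0.96) and Birc2 (0.95). The nearest to Zbtb16 were Des and Megf6 (0.93 each), to Nr3c1 Dbp and Cnpy3 (0.95 each), to Mt1 Cd200 (0.89) and Col6a1 (0.86), and to Mt2 Akap8l and Trp53 (0.81 each). The weakest best matches were those of the low genes, Tmco6 (0.85) and Sars (0.80) for Ddit4 and Bckdha and Ctsa (0.87 each) for Pdk4. All these r values are descriptions over 12 libraries that share depth and cell mix.

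Other genes that glucocorticoids are known to induce gave a wider view. Of 26 such genes 24 were tested, and 4 fell between Day7 and Day1, where 3.59% of all genes were called lower. They were Klf4, a transcription factor, Per1, a clock component, Tgm2, a transglutaminase, and Zfp36, which destabilises inflammatory mRNAs. None of the 24 was called higher, where 2.19% of all genes were. The median log2 difference was -1.93, beside -0.48 for all genes. Of the 24, 8 lay wholly below Day1, as did 14.5% of all genes, and 1 lay wholly above, as did 8.47%. That 1 was Foxo3, a transcription factor named here after its values were seen, which averaged 189.6 at Day7 and 29.4 at Day1 (log2 difference 2.55, limma adjusted p = 0.0570). Klf4 was 1.31, 0.383, 0 and 1.33 at Day7, against 28.7, 81.2, 73.7 and 20.4 at Day1, a log2 difference of -4.75 (SE 0.92, limma adjusted p = 0.0135). Per1 was 6.05, 0.766, 0 and 8.65 at Day7, against 19.0, 42.8, 66.1 and 73.6 at Day1, a difference of -3.79 (limma adjusted p = 0.0300). Zfp36 was 24.7, 10.3, 1.23 and 40.2 at Day7, against 84.7, 149, 350 and 82.1 at Day1, a difference of -3.44 (limma adjusted p = 0.0318). Tgm2 was 5.50, 2.87, 3.70 and 2.66 at Day7, against 25.1, 87.0, 52.6 and 107 at Day1, a difference of -3.73 (limma adjusted p = 0.0302). The groups do not overlap in any of these 4. Klf4 lost its call without Day1 replicate 2 or 3, and the other 3 lost theirs without Day1 replicate 2, 3 or 4 or Day7 replicate 2 or 3, as did Tgm2 without Day7 replicate 4. Without both libraries with few detected genes Per1 also missed the threshold (limma adjusted p = 0.0509). All 4 lost their calls with edgeR, with no filter and with the Y-linked term, under which limma gave -2.99 for Klf4, -2.73 for Per1, -2.70 for Zfp36 and -1.60 for Tgm2, with adjusted p of 0.186 to 0.420. In the other comparisons limma called 0 of the 24, with 4 at an unadjusted p under 0.05 in each. For Day7 against 6h edgeR called 1 and DESeq2 5, beside 84 and 1060 of all 11211 genes. For Day1 against 6h both called 0, beside 9 and 193 of all genes. In these comparisons 2020 and 1251 of all genes had an unadjusted limma p under 0.05.

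Counts of the next lists stand beside those of all 11211 genes. An unadjusted limma p under 0.05 was reached by 3266 genes between Day7 and Day1, 2020 between Day7 and 6h and 1251 between Day1 and 6h. In that order edgeR called 1, 84 and 9 genes, and DESeq2 1766, 1060 and 193. The chaperones that hold the receptor, with the enzymes that activate or inactivate corticosteroids, gave 0 calls by limma in 9 tested of 10. Between Day7 and Day1 their median log2 difference was -1.25, beside -0.48 for all genes, with 0 at an unadjusted p under 0.05 and 0 calls by edgeR or DESeq2, and 3 lay wholly below Day1, as did 14.5% of all genes. In each of the other comparisons 1 had an unadjusted p under 0.05, edgeR called 0, and DESeq2 called 1 for Day7 against 6h and 0 for Day1 against 6h. Of 9 genes of zinc handling 7 were tested and limma called 0 in any comparison, with 1 at an unadjusted p under 0.05 between Day7 and Day1 and 0 calls by edgeR or DESeq2. Mt3 and Mt4 of that list failed the filter. Of 15 paralogues of the 10 genes 12 were tested, and their median log2 difference between Day7 and Day1 was 0.52 with 0 limma calls, 5 at an unadjusted p under 0.05, 0 edgeR calls and 1 DESeq2 call. Limma called 0 of them in the other comparisons too, with 3 at an unadjusted p under 0.05 and 1 DESeq2 call for Day7 against 6h, 0 and 0 for Day1 against 6h, and 0 edgeR calls in both. A p53 list held 10 genes, Trp53, which encodes p53 itself, and targets of p53 other than Cdkn1a. The median log2 difference of the 10 between Day7 and Day1 was -0.55, beside -0.48 for all genes. Of them 6 were negative, Trp53 (-1.40) included. Btg2, named here after its values were seen, lay wholly below Day1, as did 14.5% of all genes (log2 difference -2.53, limma adjusted p = 0.0512). None was called lower, where 3.59% of all genes were. The 1 gene called rose, where 2.19% of all genes were called higher. This was Gadd45a, which encodes a growth-arrest protein. It was 77.5, 141, 1317 and 204 at Day7, against 56.0, 14.5, 19.2 and 0.778 at Day1, a log2 difference of 4.14 (SE 0.98, limma adjusted p = 0.0268), opposite in direction to Cdkn1a. Without Day1 replicate 2, 3 or 4 or Day7 replicate 2, 3 or 4 this call was lost, and the log2 difference was 3.17 to 4.83 over all fits without 1 library. It was also lost without both libraries with few detected genes, with edgeR, with no filter, with the Y-linked term (3.15), with scaling to all reads (2.15) and with scaling outside haemoglobin (2.49).

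**Figure D5:**
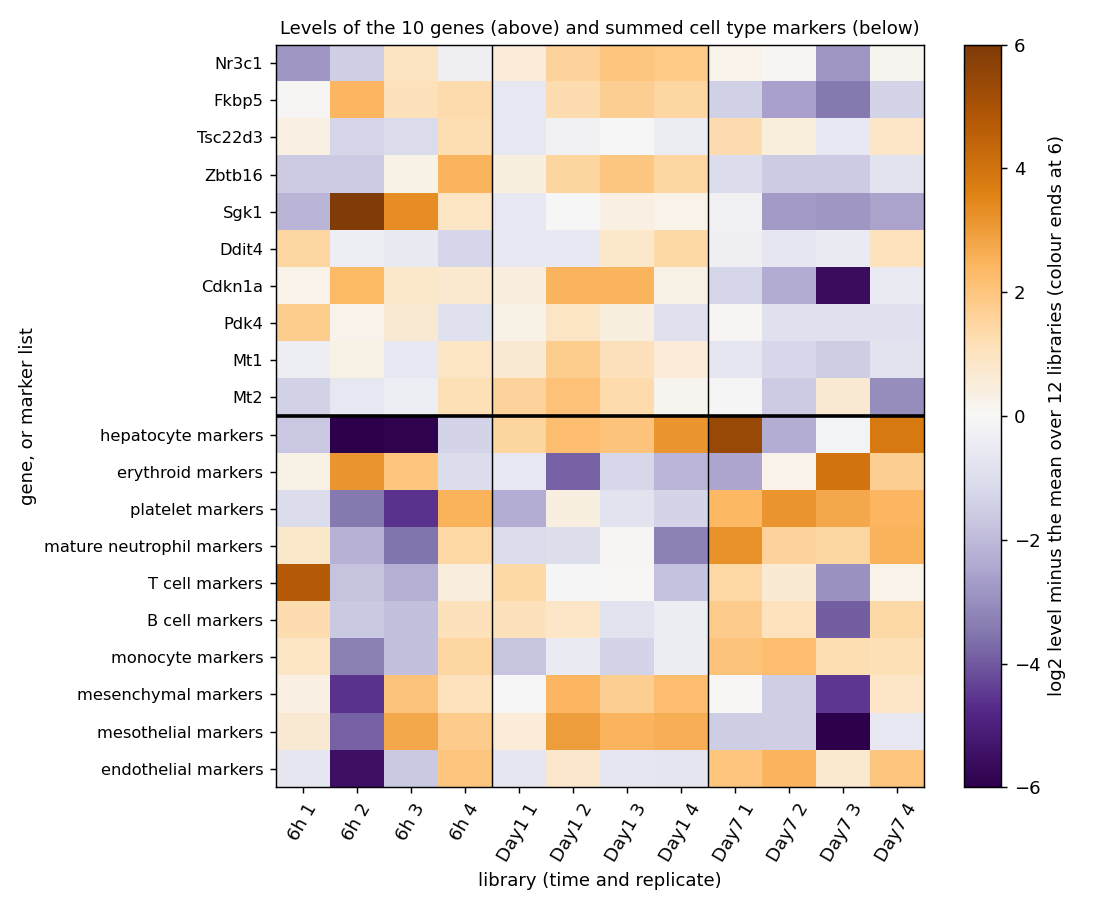
Log2 level of the 10 genes and of summed cell type markers in each library, minus the mean over the 12 libraries, in time order from 6h to Day7. Platelet, mature neutrophil and monocyte rows, which are sums, are high at Day7, as is Tsc22d3 in all Day7 libraries but replicate 3. The mean log2 level of the monocyte markers overlaps between Day7 and Day1. The mesothelial row is low at Day7 together with Fkbp5 and Cdkn1a, while in 6h replicate 2 it is low and these genes are high.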

How the data were processed

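Each sample is total RNA of iChip-enriched blood, and groups came from the sample titles. Per the submitters' processing notes the tools were STAR 2.7.10 and HTSeq 2.0.1 and the build mm9, with no role stated. The deposited table gives per gene a signal that the authors named CPM, but its columns have unequal sums, so it is no plain CPM. Values were whole multiples of a per-library unit within 0.001 reads (99.99% or more of values), so reads were recovered. No source used here gives the scaling step or the annotation.

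log2(value + 1) of all 12 libraries was fitted with limma 3.58.1 (R 4.3.3, variance trend on), keeping genes that reached 1 in 4 or more libraries. Adding 1 understates changes of low genes. Alternatives were pseudocounts, filters, scalings, edgeR 4.0.16 and DESeq2 1.42.0 on the recovered reads, a replicate block, a term for Y-linked reads, and leaving out libraries. The code was tested on simulated data. Genes named from lists were up to 4 called per list, by size of change and with a mean of at least 10 in the higher group, and the 2 genes most alike to each of the 10. The 10 genes and the lists were chosen with earlier results of these data known. Promoter windows came from RefSeq on GRCm38.p6, another build than mm9. The floors of 3 reads cover counting error only, and the 95% intervals are limma's, from the variation among libraries.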

Additional observations from a re-analysis of the deposited data

Results flagged for a closer look

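Among 33 groups of 4 libraries checked for a library far from the rest, 3 were singled out by Dixon's criterion, the gap to the nearest library divided by the range of the group. Chance singles out about 1 group in 20. Sgk1 in Day7 replicate 1 was the highest Day7 library at 9.08, with a ratio of 0.884. Pdk4 in Day7 replicate 1 was the only Day7 library with reads, at 0.894, with a ratio of 1, which 3 libraries at 0 fix in advance, and the zeros of Day7 replicates 3 and 4 allow values of up to 1.85 and 0.998. Nr3c1 in Day7 replicate 3 was the lowest Day7 library, at 0, with a ratio of 0.939, and that library allows a value of up to 1.85 at 0 reads.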

How the results depend on the processing

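The direction of Fkbp5, Cdkn1a, Mt1, Mt2, Zbtb16 and Sgk1 between Day7 and Day1 was the same under every setting run, but the calls were not. Between Day7 and Day1 no filter, edgeR and the term for Y-linked reads left 0 of the 10 genes called, median-of-ratios scaling and DESeq2 gave 4 each, and scaling to all reads or to reads outside haemoglobin gave 7 each. Over all tested genes these settings called 57, 1, 0, 774, 1766, 3963 and 3553, in that order, of 20052 with no filter and of 11211 otherwise. Leaving out 1 library gave 0 to 4 of the 10, beside 3 to 1185 of all genes. Zbtb16, Ddit4 and Pdk4 were not tested with a mean of at least 10. Between Day7 and 6h a pseudocount of 4, no filter, scaling to all reads, edgeR and the Y-linked term gave 0, median-of-ratios scaling, scaling outside haemoglobin and omitting 6h replicate 1 with Day7 replicate 3 gave 2 each, DESeq2 gave 3, and leaving out 1 library gave 0 to 3. Over all tested genes those settings called 5, 13, 0, 84, 104, 83, 58, 97 and 1060, in that order, and 3 to 695 leaving out 1 library. Between Day1 and 6h scaling to all reads called 1 (Nr3c1) and DESeq2 called 1 (Sgk1), beside 1207 and 193 of all 11211 genes.

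Over all tested genes, 19 were called between Day1 and 6h, 648 between Day7 and Day1 (245 higher, 403 lower) and 99 between Day7 and 6h (68 higher, 31 lower). For Day1 against 6h the count was 0 with a pseudocount of 4 or no filter, 7 with a mean of at least 10, 1207 with scaling to all reads, 252 with scaling outside haemoglobin, 9 with edgeR, 193 with DESeq2, 2 with the Y-linked term and 4 without the 2 libraries with the fewest genes. For Day7 against Day1 it was 57 with no filter, 3963 with scaling to all reads (10 higher, 3953 lower), 3553 outside haemoglobin (21 higher, 3532 lower), 1 with edgeR, 1766 with DESeq2, 0 with the Y-linked term (1774 at an unadjusted p under 0.05) and 416 without those 2 libraries, and median-of-ratios scaling split 774 into 151 higher and 623 lower. For Day7 against 6h it was 5 with a pseudocount of 4, 13 with no filter, 0 with scaling to all reads (962 at an unadjusted p under 0.05), 58 outside haemoglobin (10 higher, 48 lower) and 1060 with DESeq2, and median-of-ratios scaling gave 28 higher and 55 lower. Leaving out 1 library gave 2 to 64, 3 to 1185 and 3 to 695 in the 3 comparisons. The median log2 difference of all genes for Day1 against 6h was 1.57 with scaling to all reads and 1.44 outside haemoglobin, against 0.52 as reported.

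Same-numbered replicates did not deviate together (r of -0.23 to 0.12 over 12 pairs, 1 library closest to its own number). Depth and cell mix also enter these r values, so they cannot tell whether same-numbered libraries share a batch. The replicate block gave 45 calls for Day1 against 6h, 571 for Day7 against Day1 and 156 for Day7 against 6h, and 0, 2 and 1 of the 10 genes.

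Signs turned in values that passed no test, and the cause was not tested. With scaling to all reads and outside haemoglobin, Fkbp5 was 1.03 and 0.56, Tsc22d3 1.21 and 0.74, and Pdk4 0.47 and 0.15 for Day1 against 6h. Tsc22d3 was -1.29 and -1.02 for Day7 against Day1 and -0.088 and -0.28 for Day7 against 6h. Without the 2 libraries with the fewest genes, Tsc22d3 was 0.053 and Pdk4 0.18 for Day1 against 6h. Ddit4 for Day7 against 6h was -0.0060 with a pseudocount of 4, -0.31 with median-of-ratios scaling, -0.26 with scaling to all reads, -0.56 outside haemoglobin, -0.23 with edgeR, -0.90 with DESeq2 and -0.10 with the Y-linked term, and Nr3c1 there was -0.40 with DESeq2. Leaving out 1 library, Day1 against 6h ran from -0.67 to 0.25 for Fkbp5, -0.49 to 0.35 for Tsc22d3 and -0.70 to 0.18 for Pdk4. Likewise Ddit4 ran from -0.74 to 0.020 for Day7 against Day1 and -0.31 to 0.62 for Day7 against 6h, and Nr3c1 from -0.30 to 1.09 for Day7 against 6h. The Mt1 to Mt2 log2 ratio for Day7 minus Day1 was -0.17 with a pseudocount of 4 and -0.53 to 0.93 leaving out 1 library, and for Day7 minus 6h it was -1.15 to 0.32.

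Depth limits the low genes most. In Day7 replicate 3, where 1 read is worth 0.617, Fkbp5, Cdkn1a, Zbtb16, Pdk4 and Nr3c1 had 0 reads.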
